A study of Homo sapiens with 4 samples.

Results

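Epithelial cells are held together by adherens junctions, tight junctions and desmosomes, and the 34 genes described here encode parts of these junctions together with factors that keep cells epithelial. They were chosen by name, without keratins, and grouped by role: 2 adhesion molecules, 12 tight junction and apical polarity genes, 6 desmosome genes, 8 transcription and splicing regulators, 4 genes of a membrane protease and inhibitor set, and 2 trafficking genes. All 34 were found among the 43714 genes of the count table, and 30 had enough counts to be tested.

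The cells were MDA-MB-231, a human triple-negative breast cancer line labelled as mesenchymal, stably transfected with the 7TGP vector, in which 7 TCF binding sites drive EGFP, and selected with puromycin at 3 ug/mL. Fluorescence reports transcription through beta-catenin and TCF/LEF factors, the end of the Wnt pathway. After 8 rounds of sorting and expansion, an EGFP-positive line (over 80% EGFP-positive) and an EGFP-negative line (over 95% EGFP-negative) were kept, and total RNA of 2 libraries per line was sequenced. Both lines carry the vector and grew in DMEM with 10% FBS, so the EGFP-negative line is not an untransfected control. There is 1 sorted line per reporter state, so effects of reporter activity cannot be told apart from whatever else sets the lines apart. Separate cultures behind the 2 libraries of a line are not mentioned in the labels, and the p-values therefore measure only how these libraries vary, which could be technical.

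Gene counts totalled 55894092 to 63034563 per library. Markers of the labelled cell type (VIM, CD44, FN1, AXL, ZEB1 and EGFR) summed to 3420 to 4930 CPM (counts per 1000000, with TMM scaling between libraries), with the lower sums in the EGFP-positive libraries, where VIM fell. CD44 was called higher (log2 fold change 0.23), a call lost under total count scaling, without either EGFP-negative library and without the EGFP-positive library numbered 2 (highest adjusted p 0.425). Luminal markers summed to 10.0 to 11.3 CPM over 6 genes. Of these, FOXA1 rose 8.27-fold and TFF1 fell 6.28-fold, both with at most 104 counts per library. FOXA1 shares 213 bases with TTC6, which had 882% as many counts. Lists of haematopoietic, endothelial and fibroblast markers summed to 18.9 to 28.9, 70.1 to 96.8 and 13.4 to 15.2 CPM, most of the first from CD68, which overlaps a gene with far more counts, and most of the second from PECAM1. The lymphocyte marker CD3E had at most 7 counts in any library. The leukocyte marker PTPRC had 122 and 127 counts in the EGFP-negative and 182 and 145 in the EGFP-positive libraries. It did not pass (log2 fold change 0.51, edgeR, Benjamini-Hochberg adjusted p = 0.0531). The part of other cells in the results below was not tested.

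E-cadherin, encoded by CDH1, joins neighbouring cells at adherens junctions and binds beta-catenin through its tail, which links junctions to Wnt signalling. Claudins and occludin seal tight junctions and the ZO proteins anchor them to actin, while desmosomal cadherins are tied to keratin filaments through plakoglobin, plakophilins and desmoplakin. Grainyhead and OVOL factors sustain the epithelial state, and the ZEB, SNAIL and TWIST factors repress it during epithelial-mesenchymal transition.

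In the EGFP-positive line 7 of the 30 tested genes were called higher and 5 lower at a Benjamini-Hochberg adjusted p under 0.05 by edgeR's quasi-likelihood test, beside 11.6% of all 30952 tested genes that rose and 10.9% that fell. Called higher were CLDN1, TJP1, DSG2, DSC2, OVOL2, ST14 and SPINT1, of which the OVOL2 call cannot be assigned to that gene because overlapping genes hold more counts than it does. Those that fell were TJP3, DSP, PKP3, JUP and GRHL1. The 12 called genes make up 40.0% of those tested, against 22.4% of all genes and 29.5% of the 16957 protein-coding genes, and no test of that difference was made. The median log2 fold change of the 30 genes was 0.03, against -0.005 for all tested genes. Libraries of the lines did not overlap for 16 of the 30, a share of 53.3% beside 57.7% of all genes: 9 lay higher and 7 lower in the EGFP-positive line, beside 28.2% and 29.5% of all genes. In these cultures a lower level of a gene in every cell and fewer cells that express it cannot be told apart.

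The levels spanned a wide range. A mean of at least 10 CPM in either line was reached by 15 of the 34 genes, and 6 of them reached 50 CPM: TJP1, DSP, DSG2, JUP, OVOL2 and SPINT2. Genes overlapping OVOL2 together hold more counts than it does, so its level cannot be assigned to it. Another 8 were under 1 CPM in both lines: CDH1, CLDN3, MARVELD3, CRB3, ESRP1, OVOL1, PRSS8 and RAB25. Scaled per kb of annotated exon, JUP stood at 16.6, DSP at 12.3 and CLDN4 at 7.25 CPM per kb in the EGFP-negative line, while EPCAM stood at 1.85 and CDH1 at 0.0951. Reads in introns and in overlapping genes are also counted, so this scale gives only a rough order.

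**Figure D1:**
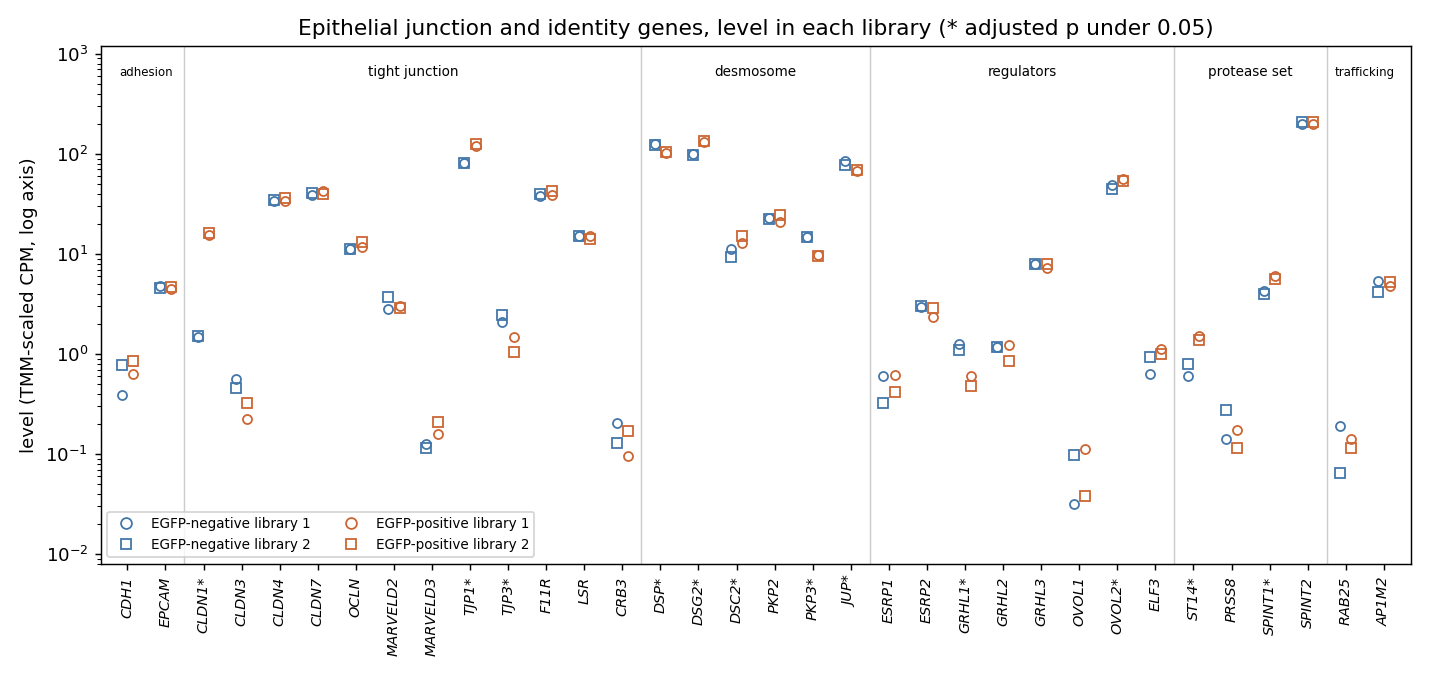
Level of each of the 34 epithelial genes in each library, as TMM-scaled CPM on a log axis, grouped by role. Circles and squares are libraries 1 and 2 of a line, and asterisks mark the 12 genes with an adjusted p under 0.05; CLDN1 shows the widest gap between the lines, and CDH1, CRB3, OVOL1 and RAB25 lie under 1 CPM in all 4 libraries.

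CDH1 (ENSG00000039068, chromosome 16, 68737225 to 68835548 on GRCh38, forward strand) was close to silent in both lines. It had 25 and 48 counts in the EGFP-negative and 40 and 45 in the EGFP-positive libraries, or 0.394, 0.782, 0.637 and 0.859 CPM. The groups overlap, and the EGFP-negative library numbered 1 is the lowest. Its log2 fold change was 0.34 with a 95% interval of -0.40 to 1.09 (edgeR, Benjamini-Hochberg adjusted p = 0.572), which spans 0.757 to 2.12 times the EGFP-negative level. The antisense gene ENSG00000260798 within CDH1 had 13.3% as many counts. EPCAM (ENSG00000119888, chromosome 2, 47345158 to 47387601, forward strand), a homophilic adhesion molecule of simple epithelia, stood at 4.74 and 4.58 CPM in the EGFP-negative and at 4.49 and 4.68 CPM in the EGFP-positive libraries. These values overlap, with a log2 fold change of -0.02 and an interval of -0.32 to 0.27 (edgeR, Benjamini-Hochberg adjusted p = 0.938).

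Among tight junction genes CLDN1 rose most. CLDN1 (ENSG00000163347, chromosome 3, 190305701 to 190322475, reverse strand) encodes claudin-1, a barrier-forming claudin. It stood at 1.47 and 1.53 CPM in the EGFP-negative and at 15.3 and 16.2 CPM in the EGFP-positive libraries. Both EGFP-positive libraries thus lie far above both EGFP-negative ones. The rise was 10.5-fold, a log2 fold change of 3.39 ± 0.13 (SE; edgeR, Benjamini-Hochberg adjusted p = 6.18e-14), and no listed gene overlaps CLDN1.

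The other claudins of the list did not pass. CLDN4, a claudin of many simple epithelia, had a mean of 34.1 ± 0.371 CPM in the EGFP-negative and 35.2 ± 2.03 CPM in the EGFP-positive line (SD, n = 2), with a log2 interval of -0.11 to 0.20. CLDN7 stood at 39.5 ± 1.44 and 41.3 ± 2.21 CPM (SD, n = 2), with an interval of -0.09 to 0.22, but it shares 2187 bases with ENSG00000262302, whose counts exceed its own. CLDN3, at 0.511 and 0.274 CPM, had an interval of -1.78 to -0.04 for the gene alone and did not pass over all genes (edgeR, Benjamini-Hochberg adjusted p = 0.130). Within a library, where no scaling enters, CLDN1 had 0.0433 and 0.0445 counts per CLDN4 count in the EGFP-negative and 0.454 and 0.443 in the EGFP-positive line. CLDN4 per CLDN7 ran from 0.788 to 0.922 over all 4 libraries, with the lines overlapping.

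The ZO scaffold genes split. TJP1 (ENSG00000104067, chromosome 15, 29699367 to 29968865, reverse strand), which encodes ZO-1, stood at 81.1 and 81.0 CPM in the EGFP-negative and at 120.6 and 125.1 CPM in the EGFP-positive libraries. It rose 1.52-fold (log2 fold change 0.60 ± 0.07 SE; edgeR, Benjamini-Hochberg adjusted p = 2.19e-06), and by 1.61-fold if the counts of the 3 genes inside it, mainly the pseudogene HMGN2P5, are taken away. TJP3 (ENSG00000105289, chromosome 19, 3708109 to 3750813, forward strand), which encodes ZO-3, stood at 2.08 and 2.44 CPM in the EGFP-negative and at 1.48 and 1.05 CPM in the EGFP-positive libraries. It fell by 0.83 on the log2 scale (SE 0.22; edgeR, Benjamini-Hochberg adjusted p = 0.00996). The lines do not overlap for either gene, but the TJP3 call was lost without the EGFP-negative library numbered 2 (log2 fold change -0.71, adjusted p = 0.0789) or when the EGFP-positive library numbered 2 was left out (-0.62, adjusted p = 0.0566). TJP1 counts per TJP3 count were 39.0 and 33.2 in the EGFP-negative libraries against 81.5 and 119 in the EGFP-positive ones.

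The transmembrane tight junction genes beside the claudins did not pass. OCLN, the occludin gene, stood at 11.3 ± 0.0386 and 12.4 ± 0.962 CPM (SD, n = 2), MARVELD2, the tricellulin gene, at 3.28 and 2.98 CPM, and LSR, which recruits tricellulin to tricellular contacts, at 15.1 and 14.7 CPM in the EGFP-negative and EGFP-positive line. F11R, which encodes the adhesion molecule JAM-A, stood at 39.1 and 40.9 CPM, but 23392 bases of its span are shared with ENSG00000270149, whose counts reached 62.7% of its own and fell. Log2 intervals of these 4 genes ran from -0.51 to 0.34. CRB3, an apical polarity protein gene, and MARVELD3 had 6 to 13 and 7 to 11 counts per library and were too low to test; they share bases with SLC25A23 and PHLPP2, and LSR holds ENSG00000268947, with 10.4% of its counts.

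Of the 6 desmosome genes in the list, 2 were called higher and 3 lower. DSG2 and DSC2, which encode the desmosomal cadherins desmoglein-2 and desmocollin-2, rose, while DSP, JUP and PKP3, which encode the plaque proteins desmoplakin, plakoglobin and plakophilin-3, fell. PKP2, also a plaque protein gene, did not pass. Called desmosome genes outside the list were mixed. PPL, the periplakin gene of the plaque, and EVPL, the envoplakin gene, fell like the plaque genes called in the list. PERP, a desmosomal membrane protein gene, fell and PKP4, a plakophilin gene, rose, and these did not keep to the division. The 250 bases before the RefSeq start (GRCh38.p14) of 4 called desmosome genes and of CLDN1 are given, 5′ to 3′ on the gene's strand. They were taken from genes called in opposite directions, and which start the cells use was not measured. These RefSeq starts lie inside the gene spans given here, so part of each window lies within the gene. That part is 134 bases for DSG2, 101 for DSC2, 96 for DSP, 220 for JUP and 29 for CLDN1. Capitals mark CACCTG or its reverse complement, the E-box form that SNAI and ZEB factors bind. The windows are chr18:31497927-31498176 (forward) for DSG2, chr18:31102422-31102671 (reverse) for DSC2, chr6:7541421-7541670 (forward) for DSP, chr17:41786712-41786961 (reverse) for JUP and chr3:190322447-190322696 (reverse) for CLDN1.
DSG2: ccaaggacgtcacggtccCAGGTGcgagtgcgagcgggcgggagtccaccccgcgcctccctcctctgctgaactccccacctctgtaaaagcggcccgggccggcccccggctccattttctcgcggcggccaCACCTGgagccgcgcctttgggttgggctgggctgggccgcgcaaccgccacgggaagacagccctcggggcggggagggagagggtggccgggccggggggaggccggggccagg
DSC2: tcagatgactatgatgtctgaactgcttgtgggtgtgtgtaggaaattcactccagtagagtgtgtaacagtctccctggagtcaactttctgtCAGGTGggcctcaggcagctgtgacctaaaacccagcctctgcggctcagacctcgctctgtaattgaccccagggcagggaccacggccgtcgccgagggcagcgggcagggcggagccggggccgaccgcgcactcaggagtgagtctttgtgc
DSP: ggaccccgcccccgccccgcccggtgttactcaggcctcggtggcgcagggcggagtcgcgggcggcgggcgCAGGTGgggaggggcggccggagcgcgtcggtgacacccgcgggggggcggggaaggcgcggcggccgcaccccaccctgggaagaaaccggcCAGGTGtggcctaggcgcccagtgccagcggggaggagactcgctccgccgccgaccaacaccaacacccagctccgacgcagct
JUP: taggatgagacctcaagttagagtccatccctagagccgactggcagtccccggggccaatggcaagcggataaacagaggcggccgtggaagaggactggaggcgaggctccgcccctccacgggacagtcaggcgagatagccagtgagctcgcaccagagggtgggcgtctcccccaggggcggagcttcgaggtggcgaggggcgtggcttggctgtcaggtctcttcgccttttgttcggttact
CLDN1: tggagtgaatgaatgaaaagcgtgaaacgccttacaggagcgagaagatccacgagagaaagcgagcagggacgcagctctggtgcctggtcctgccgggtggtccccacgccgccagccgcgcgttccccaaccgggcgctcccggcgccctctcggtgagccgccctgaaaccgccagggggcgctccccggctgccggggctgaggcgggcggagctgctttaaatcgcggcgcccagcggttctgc

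Whether these letters go with the direction of change was not tested, and the windows are few. DSG2 has CACCTG or its complement at 2 places, the farther one starting 232 bases before its RefSeq start. DSC2 has it 156 bases before its RefSeq start, and both genes rose. DSP has it 178 and 85 bases before its RefSeq start and fell, while JUP, which fell, and CLDN1, which rose, hold none in these windows. A RefSeq window was found for 20 of the 34 genes, the one nearest the annotated start being used where a gene has several. CACCTG on either strand stood in 10 of these 20, beside 17.5% of all 35116 windows of the same length, and the median GC content was 64.0% in the 20 and 58.0% in all. Of genes with a window, 3 of 5 that rose and 1 of 4 that fell hold it. Any E-box, CANNTG, which includes CACCTG, stood in 12 of the 20 and in 61.8% of all windows. The TCF/LEF motif CTTTGAT and the Grainyhead motif AACCGGTT were in none of the 20, beside 2.26% and 0.117% of all windows. A match is a run of letters and no evidence of binding. No window was matched for CDH1, EPCAM, ESRP1, ESRP2, F11R, GRHL2, MARVELD3, OVOL1, OVOL2, PKP2, PKP3, PRSS8, SPINT2 and ST14.

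DSG2 (ENSG00000046604, chromosome 18, 31498043 to 31549008, forward strand) stood at 100.3 and 98.6 CPM in the EGFP-negative and at 132.3 and 134.7 CPM in the EGFP-positive libraries. The lines do not overlap, and the rise was 1.34-fold (log2 fold change 0.42 ± 0.07 SE; edgeR, Benjamini-Hochberg adjusted p = 1.34e-04). DSG2-AS1, an antisense gene sharing 6863 bases with it, had 64.0% as many counts. If all of those were taken from DSG2, 36.7 and 36.2 CPM would be left in the EGFP-negative and 46.6 and 48.4 CPM in the EGFP-positive libraries, still 1.30 times higher. DSC2 (ENSG00000134755, chromosome 18, 31058840 to 31102522, reverse strand) stood at 11.2 and 9.41 CPM in the EGFP-negative and at 12.9 and 15.2 CPM in the EGFP-positive libraries. It rose 1.36-fold (log2 fold change 0.44 ± 0.11 SE; edgeR, Benjamini-Hochberg adjusted p = 0.00536), and the call was lost without the EGFP-negative library numbered 2 (adjusted p = 0.125).

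Desmoplakin, which ties the plaque to keratin filaments, is encoded by DSP (ENSG00000096696, chromosome 6, 7541575 to 7586717, forward strand). DSP stood at 125.7 and 122.3 CPM in the EGFP-negative and at 101.2 and 103.4 CPM in the EGFP-positive libraries, and fell by 0.28 on the log2 scale (SE 0.07; edgeR, Benjamini-Hochberg adjusted p = 0.00656). JUP (ENSG00000173801, chromosome 17, 41754604 to 41786931, reverse strand), whose product plakoglobin is a close relative of beta-catenin, stood at 85.9 and 78.1 CPM in the EGFP-negative and at 67.5 and 69.6 CPM in the EGFP-positive libraries. It fell by 0.26 on the log2 scale (SE 0.07; edgeR, Benjamini-Hochberg adjusted p = 0.0141). Libraries of the lines do not overlap for either gene, and no listed gene overlaps them, but the falls are small. Both calls were lost without the EGFP-negative library numbered 1 (adjusted p = 0.222 for DSP and 0.411 for JUP) and without the one numbered 2 (0.112 and 0.0538).

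Plakophilin-3, a plaque protein found throughout most stratified and simple epithelia, is encoded by PKP3 (ENSG00000184363, chromosome 11, 392614 to 404908, forward strand). PKP3 stood at 14.6 and 14.9 CPM in the EGFP-negative and at 9.84 and 9.54 CPM in the EGFP-positive libraries. It fell by 0.61 on the log2 scale (SE 0.09; edgeR, Benjamini-Hochberg adjusted p = 5.37e-05). Its relative PKP2, which also serves desmosomes of heart muscle, stood at 22.6 ± 0.624 and 22.9 ± 2.61 CPM (SD, n = 2), with a log2 interval of -0.17 to 0.20.

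Ratios of the same counts within a library do not depend on how libraries are scaled. DSG2 had 0.798 and 0.806 counts per DSP count in the EGFP-negative and 1.31 and 1.30 in the EGFP-positive libraries. DSC2 per DSP was 0.0892 and 0.0769 against 0.127 and 0.147. DSP per JUP, by contrast, lay between the 1.46 and 1.57 of the EGFP-negative libraries in both EGFP-positive ones. Within the plaque, PKP3 per PKP2 was 0.635 and 0.673 against 0.469 and 0.386. A ratio shows unequal change and does not say which gene moved.

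**Figure D2:**
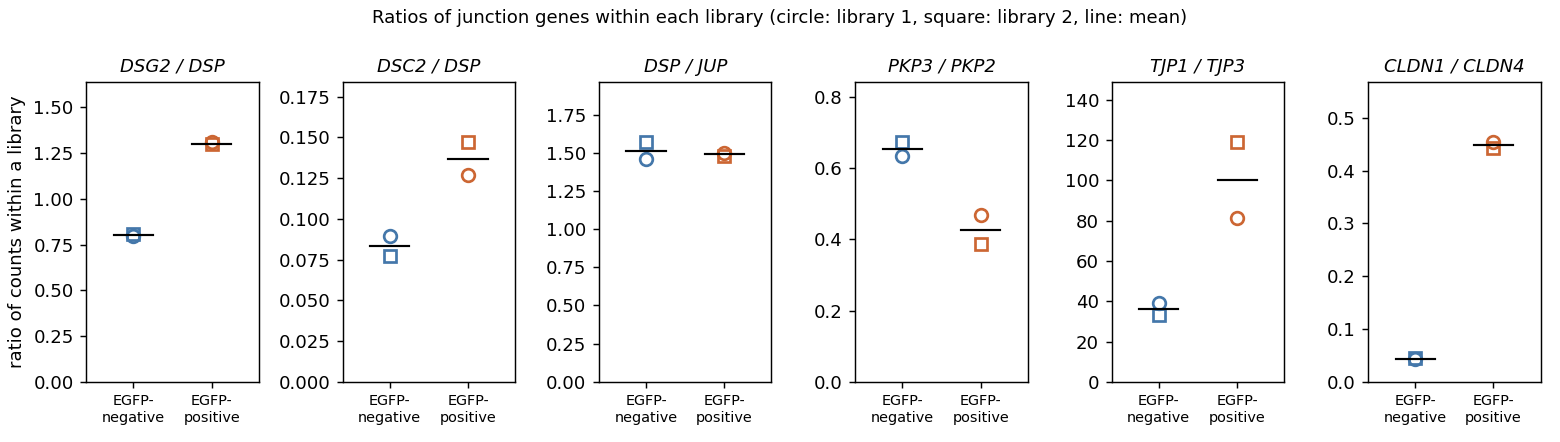
Ratio of the counts of 2 junction genes within each library, for 6 pairs, on axes that start at 0. Circles and squares are libraries 1 and 2 and lines are means of a line; DSG2 and DSC2 per DSP are higher in the EGFP-positive libraries, PKP3 per PKP2 is lower, DSP per JUP overlaps between the lines, and TJP1 per TJP3 and CLDN1 per CLDN4 are higher.

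Of the regulators, GRHL1 fell, OVOL2 was called higher on counts it shares with other genes, and the other tested ones did not pass. GRHL1 (ENSG00000134317, chromosome 2, 9951693 to 10002277, forward strand), a Grainyhead transcription factor gene, had 80 and 68 counts in the EGFP-negative and 38 and 25 in the EGFP-positive libraries, or 1.26, 1.11, 0.605 and 0.477 CPM. It fell by 1.12 on the log2 scale (SE 0.29; edgeR, Benjamini-Hochberg adjusted p = 0.00755), from a low level. GRHL2 (ENSG00000083307, chromosome 8, 101492432 to 101669726, forward strand), the family member most tied to E-cadherin expression, stood at 1.18 and 1.19 CPM in the EGFP-negative and at 1.24 and 0.859 CPM in the EGFP-positive libraries, which overlap. Its log2 interval was -0.71 to 0.39 (edgeR, Benjamini-Hochberg adjusted p = 0.740), and the antisense gene ENSG00000254024 had 23.6% as many counts. GRHL3, at 7.89 and 7.63 CPM, overlaps STPG1, whose counts exceed its own.

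OVOL2 (ENSG00000125850, chromosome 20, 17956979 to 18059188, reverse strand), a zinc finger repressor of mesenchymal genes, was listed at 48.7 and 44.4 CPM in the EGFP-negative and at 56.6 and 53.8 CPM in the EGFP-positive libraries. Its call (log2 fold change 0.25 ± 0.07 SE; edgeR, Benjamini-Hochberg adjusted p = 0.0200) cannot be assigned to OVOL2. The span holds MGME1 and SNORD17 and shares 12002 bases with SNX5, and the counts of these genes together exceed those of OVOL2 in every library. SNX5 itself rose, with a log2 fold change of 0.29 (edgeR, Benjamini-Hochberg adjusted p = 0.00514). The OVOL2 call was also lost under total count scaling (adjusted p = 0.170) and without the EGFP-negative library numbered 1 (0.0652) or 2 (0.404).

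ESRP1 and ESRP2, the epithelial splicing regulators, had means of 0.462 and 3.01 CPM in the EGFP-negative line and of 0.520 and 2.62 CPM in the EGFP-positive line. ELF3, an epithelial ETS factor gene, stood at 0.779 and 1.06 CPM, and OVOL1, which holds OVOL1-AS1, had 2 to 7 counts per library and was too low to test. ESRP2 and ELF3 overlap genes with far more counts, NFATC3 and ELF3-AS1. The 3 tested genes among these had log2 intervals from -0.64 to 1.05.

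The membrane protease matriptase, encoded by ST14, cleaves junction-related substrates at the epithelial surface, and SPINT1 and SPINT2 encode its inhibitors HAI-1 and HAI-2. ST14 (ENSG00000149418, chromosome 11, 130159562 to 130210376, forward strand) had 38 and 49 counts in the EGFP-negative and 96 and 73 in the EGFP-positive libraries, or 0.598, 0.798, 1.53 and 1.39 CPM. It rose 2.09-fold (log2 fold change 1.07 ± 0.27 SE; edgeR, Benjamini-Hochberg adjusted p = 0.00563), and the call was lost without the EGFP-negative library numbered 1 (log2 fold change 0.88, adjusted p = 0.0675). SPINT1 (ENSG00000166145, chromosome 15, 40844018 to 40858207, forward strand) stood at 4.27 and 3.96 CPM in the EGFP-negative and at 6.04 and 5.67 CPM in the EGFP-positive libraries. It rose 1.42-fold (log2 fold change 0.51 ± 0.14 SE; edgeR, Benjamini-Hochberg adjusted p = 0.00962). The lines do not overlap for either gene. The SPINT1 call was lost under total count scaling (adjusted p = 0.0615) and without the EGFP-negative library numbered 2 (0.127), while taking away the counts of SPINT1-AS1 left a 1.40-fold rise.

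SPINT2 was the most highly counted of the 34 genes, at 204 ± 8.60 and 203 ± 7.42 CPM (SD, n = 2), with a log2 interval of -0.16 to 0.15, and it shares 3464 bases with ENSG00000267748, which had 94.8% as many counts. PRSS8, the gene of prostasin, a protease that acts with matriptase, had 6 to 17 counts per library and an interval of -1.71 to 0.71, and ENSG00000261385 lies inside it. Within a library, ST14 had 0.00302 and 0.00380 counts per SPINT2 count in the EGFP-negative and 0.00773 and 0.00669 in the EGFP-positive line. ST14 per SPINT1 was 0.140 and 0.202 against 0.253 and 0.246.

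AP1M2, the adaptor subunit that sorts proteins to the basolateral side of epithelial cells, stood at 4.79 ± 0.805 and 5.01 ± 0.259 CPM (SD, n = 2), with a log2 interval of -0.25 to 0.37. RAB25, a GTPase of apical recycling, had 4 to 12 counts per library and was not tested.

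**Figure D3:**
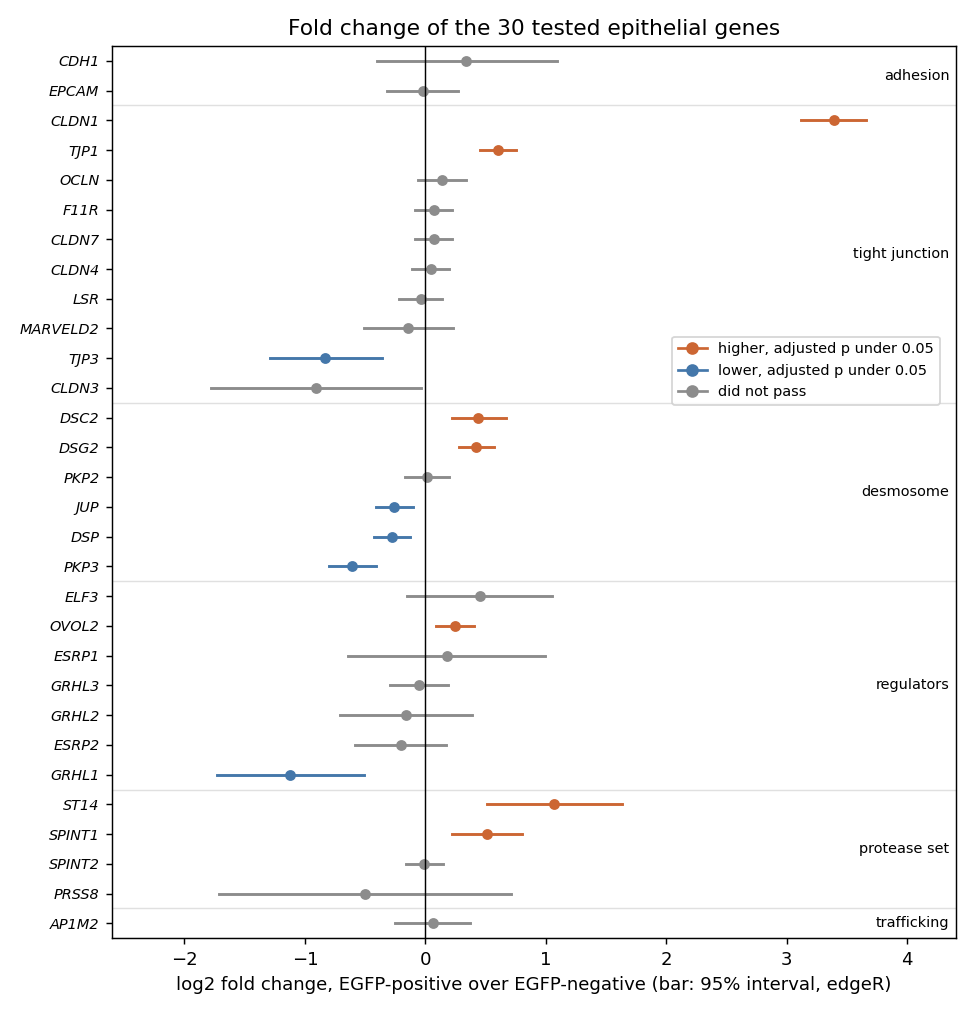
Log2 fold change of the 30 tested epithelial genes, EGFP-positive over EGFP-negative, grouped by role, with 95% intervals from edgeR for each gene alone. CLDN1 stands at 3.39, the desmosomal cadherins DSG2 and DSC2 lie above 0 and PKP3, DSP and JUP below it, and intervals are widest for genes with few counts such as PRSS8.

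Other genes were taken from lists that hold none of the 34: adherens junction, tight junction, polarity and desmosome genes, other epithelial identity genes and repressors of the epithelial state. Of 79 tested over these lists, 18 rose, 15 fell and 46 did not pass, beside 11.6% of all genes that rose and 10.9% that fell, with a median log2 fold change of -0.01. In the desmosome list, 1 of 7 rose and 3 fell: PPL, the periplakin gene of the plaque, fell from 12.1 ± 1.26 to 5.61 ± 0.326 CPM (SD, n = 2), EVPL, the envoplakin gene, from 41.1 to 29.5 CPM and PERP, a desmosomal membrane protein gene, from 55.8 to 45.1 CPM, while PKP4, which encodes a plakophilin also found at adherens junctions, rose from 47.5 to 65.5 CPM. EVPL overlaps TEN1-CDK3 and PKP4 overlaps PKP4-AS1, with 49.8% and 42.1% as many counts, and the PERP call was lost without the EGFP-negative library numbered 1 (adjusted p = 0.109).

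In the tight junction list, 2 of 20 rose and 3 fell. CGNL1, which encodes the junctional actin linker paracingulin, had 361 and 356 counts in the EGFP-negative and 60 and 38 in the EGFP-positive libraries. It fell by 2.76 on the log2 scale (SE 0.19; edgeR, Benjamini-Hochberg adjusted p = 8.55e-10). MARVELD1 fell from 21.6 to 16.5 CPM, and the angulin gene ILDR2 rose from 13.4 to 20.0 CPM. In the adherens junction list, 4 of 10 rose and none fell: CTNND1, the p120-catenin gene, from 157 to 199 CPM, CTNNB1, the beta-catenin gene, from 514 to 659 CPM, AFDN from 73.2 to 88.9 CPM and NECTIN3 from 100.4 to 118.8 CPM. All 4 calls were lost without either EGFP-negative library, with highest adjusted p of 0.127 for CTNND1, 0.234 for CTNNB1, 0.286 for AFDN and 0.377 for NECTIN3, and those of AFDN and NECTIN3 also under total count scaling. TMX2-CTNND1, which shares 38344 bases with CTNND1, had 40.1% as many counts.

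In the polarity list, 4 of 15 rose and 2 fell. LLGL2, which marks the basolateral side, fell from 26.6 ± 1.23 to 11.4 ± 0.691 CPM (SD, n = 2; log2 fold change -1.22 ± 0.09 SE; edgeR, Benjamini-Hochberg adjusted p = 1.34e-09). Its relative LLGL1 rose from 70.1 to 102 CPM. Of its 19289 bases it shares 40 with FLII, which had far more counts. PARD6B, of the apical PAR complex, rose from 6.16 to 11.3 CPM and DLG1 from 92.2 to 121 CPM.

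Among other epithelial identity genes, 5 of 20 rose and 6 fell. TP63, a transcription factor gene of basal epithelia, rose from 5.25 ± 0.0556 to 19.2 ± 0.515 CPM (SD, n = 2; log2 fold change 1.87 ± 0.10 SE; edgeR, Benjamini-Hochberg adjusted p = 1.15e-11), and TFAP2C rose from 15.9 to 43.3 CPM. SCNN1A, an epithelial sodium channel subunit gene that overlaps the more highly counted LTBR, fell from 33.5 to 3.47 CPM. ERBB3 fell from 10.7 to 5.52 CPM and overlaps ENSG00000257411, which had 180% as many counts.

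Of 7 genes of repressors of the epithelial state, 2 were called higher and 1 lower. SNAI2 rose from 10.4 ± 0.649 to 16.2 ± 0.905 CPM (SD, n = 2; log2 fold change 0.64 ± 0.09 SE; edgeR, Benjamini-Hochberg adjusted p = 3.45e-05). ZEB2 rose from 18.6 to 22.3 CPM, a call lost without either EGFP-negative library, under total count scaling and by DESeq2. SNAI3 was listed at 4.33 CPM in the EGFP-negative and 2.16 CPM in the EGFP-positive line. Its whole span of 8812 bases is shared with SNAI3-AS1, which had 223% as many counts, so the call cannot be assigned to SNAI3. ZEB1 stood at 133 and 125 CPM in the EGFP-negative and EGFP-positive line and did not pass.

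**Figure D4:**
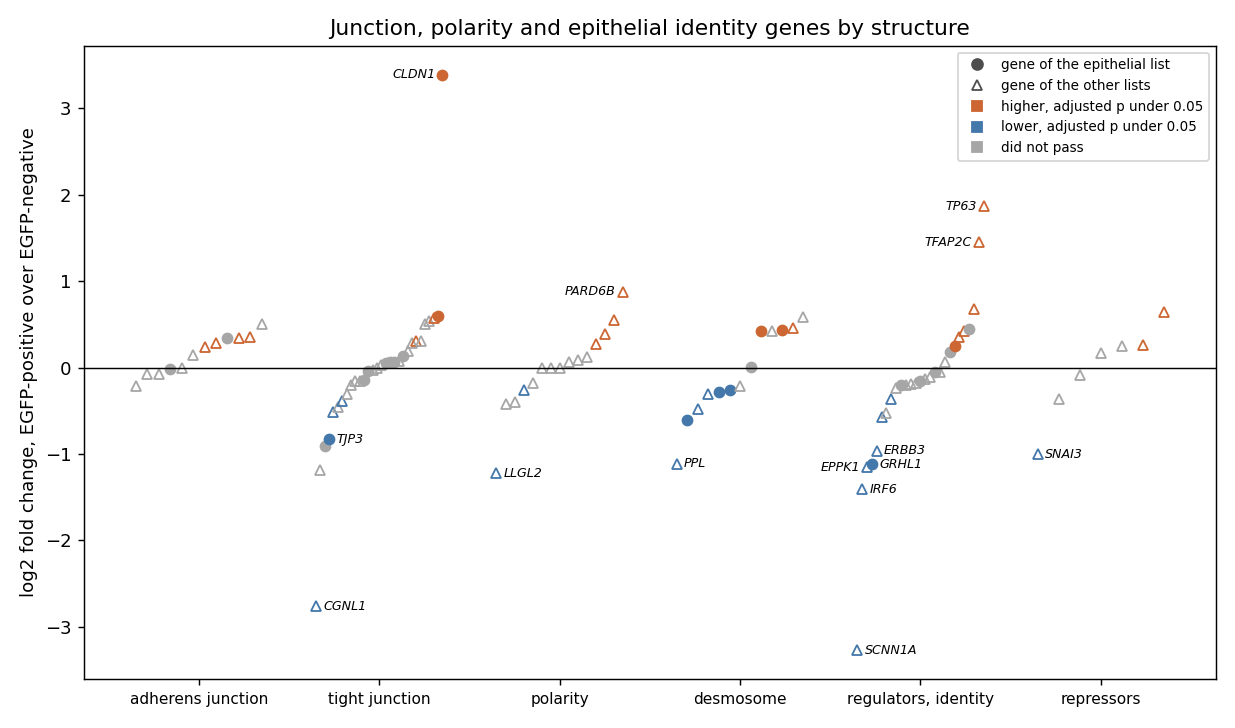
Log2 fold change of tested junction, polarity and epithelial identity genes, by structure; filled circles are genes of the epithelial list and open triangles genes of the other lists, coloured by call. Each group other than the adherens junction holds called genes on both sides of 0, from CGNL1 at -2.76 to CLDN1 at 3.39 among tight junction genes.

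Position along the chromosomes was compared for the 12 called genes, over tested protein-coding genes within 1 Mb that do not overlap them. Neighbours that overlap each other were all kept, such as BLOC1S5, TXNDC5 and BLOC1S5-TXNDC5 near DSP. Such genes share reads, so the counts of neighbours are not counts of independent genes. Of all tested protein-coding genes, 14.7% rose and 14.8% fell. TP63 lies within this distance of CLDN1, and 3 of the 9 neighbours of CLDN1 rose and none fell, with a median log2 fold change of 0.08. DSG2 and DSC2 lie in the desmosomal cadherin cluster of chromosome 18, so they are among each other's neighbours: 4 of 9 neighbours of DSC2 rose and 1 fell (median 0.40), and 4 of 11 of DSG2 rose and 1 fell (median 0.26). DSG1 and DSC3 of the cluster did not pass, and DSG3, DSG4 and DSC1 were too low to test. PKP3 lies near the tip of chromosome 11, where 24 of 47 neighbours fell and none rose (median -0.26, against -0.61 for PKP3). Around DSP 5 of 13 neighbours fell and none rose (median -0.17, against -0.28 for DSP), and around TJP3 15 of 54 fell and 2 rose (median -0.14). GRHL1 went against its surroundings, where 7 of 17 neighbours rose and none fell (median 0.15). Around ST14 4 of 9 rose and none fell (median 0.21), and around TJP1 2 of 14 rose and none fell (median 0.23). Around JUP 2 of 47 rose and 8 fell (median -0.11). Medians lay at 0.03 around OVOL2, where 3 of 15 rose and 1 fell, and at 0.04 around SPINT1, where 5 of 48 rose and 5 fell. The part of the surrounding region in these changes was not tested.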

How the data were processed

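RNA of MDA-MB-231 sublines went into an Ultra II library kit, per the labels' protocols. The authors deposited a table of raw counts, with Ensembl IDs as rows and libraries as columns; HISAT2, Bowtie2, DESeq2 and hg19 are named without roles per the submitters' processing notes. The sources used here name no counting tool, annotation or strand setting. IDs were matched to GENCODE release 29 (GRCh38), which supplied symbols and positions, so the build of the positions is not the build named in the notes. For 3079 of 3079 pairs of a gene (at least 100 counts over the libraries) lying inside another without a shared exon, the outer gene had at least as many counts in all 4 libraries. Deposited counts thus cover whole gene spans, introns and both strands, and where genes overlap their reads are mixed; of the genes overlapping a member, the one with the highest counts is named if it reaches 10% of the member's.

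The test was edgeR 4.0.16 (R 4.3.3) on the counts. Low genes were dropped by filterByExpr, with a minimum count of 10 and a minimum total of 15, and TMM factors and a robust quasi-likelihood fit with the line as its only term followed, with Benjamini-Hochberg adjustment over all 30952 genes kept, and a threshold of 0.05. CPM use TMM-scaled library sizes. The SE is the fitted log2 change over the square root of F, and 95% intervals are for single genes. Chi-square divided by its degrees of freedom was 32.8 and 17.1 between the libraries of a line, above the 1 that counting noise alone gives. The code was tested on simulated counts. Other settings tried were scaling by RLE or by total counts, no filter, a filter of 1 CPM in 2 libraries, DESeq2 1.42.0, limma-voom (limma 3.58.1), a replicate block, leaving out each library, and only genes without an overlapping listed gene.

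The 34 genes, the lists and the rules were chosen with earlier results of these data known. Library values are given for called members whose higher mean reached 1 CPM and for CDH1, EPCAM and GRHL2; per other list, at most 4 called genes with the smallest adjusted p are named, and 1 such gene is not reported here. CLDN8 has no row in the table.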

Additional observations from a re-analysis of the deposited data

How the results depend on the processing

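CLDN1, TJP1, DSG2, PKP3 and GRHL1 kept their call and direction in every alternative in which they were tested; TJP1, DSG2, DSC2, OVOL2 and SPINT1 could not be tested among genes without an overlapping listed gene. No called gene changed direction. Of 139 alternative values of the 12 called genes, 13 lost the call, all under total count scaling or without 1 library. RLE scaling, both filters, DESeq2, limma-voom and the replicate block called the same 12 genes.

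Leaving out 1 library gave 4 to 7 higher and 2 to 5 lower members, a median of -0.008 to 0.033, and 2333 to 4704 higher and 2025 to 4457 lower genes in all; a line left with 1 library is assumed to vary like the other. Without the EGFP-negative library numbered 1 or 2, 8 and 6 of the 12 calls remained. Total count scaling moved the median of all genes by -0.08 and that of the members to -0.056, called 2270 genes higher, with 36.0% of calls higher against 51.5%, and turned CLDN4 to -0.04, CLDN7, AP1M2 and F11R to -0.02 and PKP2 to -0.07, none of which passed. The 1 CPM filter gave a median of 0.015 over 25 members. Genes without an overlapping listed gene left 12 members, with 2 higher, 5 lower and a median of -0.213, among 1111 higher and 1093 lower genes of 9888, fewer genes being tested.

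Genes that did not pass and changed sign without 1 library ranged on the log2 scale from -0.07 to 0.91 for CDH1, -0.06 to 0.01 for EPCAM, -0.02 to 0.11 for CLDN4, -0.19 to 0.69 for ESRP1, -0.46 to 0.06 for GRHL2, -0.11 to 0.01 for GRHL3, -0.11 to 0.13 for PKP2, -0.90 to 0.04 for PRSS8, -0.05 to 0.03 for SPINT2, -0.32 to 0.07 for MARVELD2, -0.10 to 0.25 for AP1M2 and -0.01 to 0.13 for F11R. The cause of these changes was not tested.

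Library numbers are shared between the lines, but nothing in the labels says that they mark pairs, and deviations of same-numbered libraries did not go together (correlation across genes -0.026). With the replicate block 7 members were higher and 5 lower, and 4175 and 4051 genes in all. With 2 libraries per line, counts under about 100 leave wide intervals, as for CDH1 and PRSS8.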
